A study of Mus musculus with 16 samples.

Results

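The cells described here were VE-cadherin+/CD45+ cells sorted from the embryo proper of mice at stage E11.5 (embryonic day), compared between embryos that carried a Tie-2-Etv2 transgene pair and controls. The samples were chosen by their titles: 2 arrays of Tie-2-Etv2 and 2 arrays of control, 4 of the 16 arrays of the series. The Tie-2-Etv2 label stands for an Etv2 transgene that a Tie-2 Cre transgene switches on, so Etv2 is forced wherever the Tie-2 promoter has driven Cre. The controls are labelled only as control, and the labels do not say which transgenes they carried. Both genotypes had a mixed background (B6/CBA and others), and the cells were sorted by FACS with no treatment afterwards. The other 12 arrays hold 2 arrays for each remaining combination of tissue (embryo proper or yolk sac), gate (CD45+ or CD45-) and genotype. Nothing in the labels says how many embryos made a sample or whether replicates came from separate litters, so p-values reflect only how much these samples vary, and that variation may be technical.

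Etv2 is a transcription factor of the ETS family that is switched on briefly in early mesoderm, where it is required for the formation of endothelial cells and of the first blood cells, and it is then normally shut down. Tie-2 (gene Tek) is a receptor of endothelial cells, so its promoter marks the endothelium and, through the lineage, blood cells that derive from it. VE-cadherin (gene Cdh5) is the adhesion protein of endothelial junctions, and CD45 (gene Ptprc) is the membrane phosphatase of nearly all white blood cells. Macrophages are the main white blood cells of the embryo at midgestation.

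Each array was a 1-colour Agilent array, and levels are given as log2 of the processed signal minus the array's 75th percentile, so 0 is a level at that percentile and 1 unit is a doubling of signal. No spot was saturated on the 4 arrays, and the share of probes well above background was 52.3% to 55.1%, against 50.6% to 59.9% over all 16 arrays. Replicates correlated at 0.976 over genes in the controls and 0.988 in Tie-2-Etv2. All embryo arrays lay on slide 1 and all yolk sac arrays on slide 2, so tissue and slide cannot be told apart. Within slide 1 the control arrays of this gate were in rows 1 and 2 and the Tie-2-Etv2 arrays in rows 3 and 4, so row and genotype cannot be told apart either. Precision is limited by how few arrays there are.

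The gate markers were checked first. Ptprc stood at 3.56 and 2.88 in the 2 control arrays and at 2.91 and 2.44 in Tie-2-Etv2, against -4.87 and -5.55 in the control arrays of the embryo CD45- gate. Cdh5 stood at 0.33 and -0.66 in the controls of the CD45+ gate, against 5.88 and 5.69 in the controls of the CD45- gate. The CD45+ cells thus carried the CD45 transcript and a much lower level of the VE-cadherin transcript than the CD45- cells. The macrophage receptor Csf1r was at 9.10 and 8.99 in the controls, and the macrophage complement gene C1qc at 7.63 and 7.43.

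The forced gene was read by 2 probes, shown here because they carry the check of the transgene. No letters are capitalised. Both lie on the minus strand of chromosome 7 in mm9, at chr7:31418776-31418835 for probe 1 and chr7:31419633-31419692 for probe 2, and match the Etv2 transcript. No annotation of that build was used here, so their exons were not determined, and the arrays cannot tell transgene from endogenous transcript.
Etv2 probe 1: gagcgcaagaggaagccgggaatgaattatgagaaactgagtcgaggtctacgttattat
Etv2 probe 2: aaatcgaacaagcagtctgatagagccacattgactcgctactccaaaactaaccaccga
By probe 1, Etv2 was at -2.39 and -2.75 in the controls and at 0.11 and 0.94 in Tie-2-Etv2. Both transgenic arrays lay above both controls, and the difference was 3.09 ± 0.96 (SE, n = 2 against 2), which did not pass the threshold (adjusted p = 0.124). Probe 2 gave a difference of 3.01 ± 0.77. The difference passed with normexp background correction (2.07, adjusted p = 0.00139) and in a fit of the 8 embryo arrays (adjusted p = 0.0120). Over the alternatives tried the adjusted p ranged from 0.00139 to 0.603. In the yolk sac CD45+ gate the controls were at -6.20 and -2.09 and Tie-2-Etv2 at 2.11 and 1.76, a control spread that enters the shared error.

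Of 24588 genes tested, 564 were higher in Tie-2-Etv2 (2.29%) and 175 were lower (0.712%) by limma's moderated test at an adjusted p under 0.05. The counts of genes that passed in each gene list below are to be read against these shares. The increases were larger than the decreases: 86 of the genes that rose did so by more than 4 log2 units, against 4 of the genes that fell. The median difference was 2.33 over the genes that rose and -1.36 over those that fell, against -0.03 over all genes tested. Of all genes, 19.8% had both Tie-2-Etv2 arrays above both controls and 23.4% had both below, so 2 arrays that do not overlap are common here. The test borrows its error from all 16 arrays: on the 4 arrays alone no gene passed, while 2889 had an unadjusted p under 0.05 (3970 in the fit of all arrays). Without Tie-2-Etv2 replicate 2, 263 genes rose and 22 fell, and without control replicate 2, 533 rose and 392 fell.

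**Figure D1:**
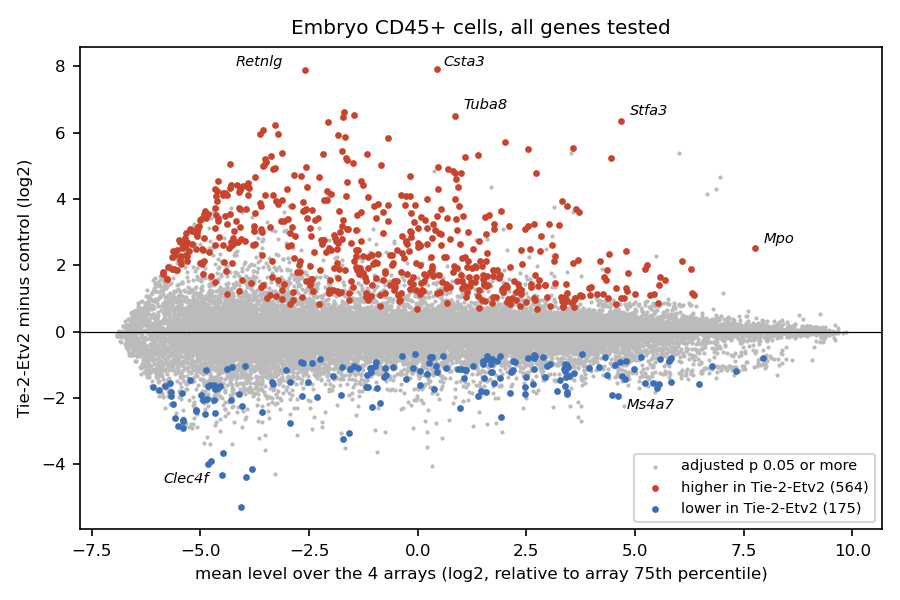
Difference between Tie-2-Etv2 and control (log2, vertical) against the mean level over the 4 embryo CD45+ arrays (log2 relative to the array's 75th percentile, horizontal), one point per gene. The 564 genes that rose (red) reach 7.93 for Csta3, and the 175 that fell (blue) are fewer and mostly smaller in size.

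Some genes of granulocytes, the short-lived phagocytes that store antimicrobial proteins in granules, were among those that rose. Of the 18 neutrophil granule genes, 6 rose and none fell, and the list's median difference was 3.1. Ltf encodes lactoferrin, an iron-binding protein of secondary granules. It was at -1.22 and -1.33 in the controls and at 3.87 and 4.22 in Tie-2-Etv2, a difference of 5.32 ± 0.88 or 40.1-fold (adjusted p = 0.00918). Mpo encodes myeloperoxidase, the main enzyme of primary granules. It was already high in the controls, at 5.96 and 7.05, and stood at 8.84 and 9.21 in Tie-2-Etv2, a 5.72-fold difference (adjusted p = 0.0325). Lcn2, an iron-chelator carrier of granules, rose by 3.06, and Gfi1, a repressor needed for neutrophil development, by 3.13. The sixth gene was Hp, haptoglobin (2.33). Mmp8, neutrophil collagenase, was well above background on 1 of 2 control arrays, at -3.53 and -6.49, and stood at 0.96 and 2.27 in Tie-2-Etv2.

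The other 12 neutrophil granule genes did not pass, although 11 of them had positive differences. For 10 of them both Tie-2-Etv2 arrays lay above both controls, against 19.8% of all genes. S100a8 encodes a subunit of calprotectin and was picked after its values were seen. It stood at 2.21 and 4.44 in the controls and at 8.53 and 8.91 in Tie-2-Etv2, a difference of 5.39 ± 1.62 (adjusted p = 0.112). Its partner S100a9 went from 3.71 and 5.55 to 9.09 and 9.50 (adjusted p = 0.137). For both genes control replicate 2 was higher than control replicate 1 by about 2 units, so the controls themselves were spread. The count that passed also moved with single arrays: it was 8 without control replicate 2, 2 without control replicate 1, 2 without Tie-2-Etv2 replicate 1 and 1 without Tie-2-Etv2 replicate 2. With normexp background correction it was 14.

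The stefin A genes encode small inhibitors of cysteine cathepsins that are abundant in granulocytes, and in the mouse they form a cluster of near copies on chromosome 16. The array holds 11 such genes there, of which 10 were tested, with probes between 36160118 and 36450752 of chromosome 16 in mm9. All 10 tested had differences of 4.15 to 7.93 (median 5.47), and 7 passed. The group was put together after the values were seen, so its count supports nothing by itself. Because the genes are near copies, 4 of their probes are shown, with capitals marking the longest run each shares with a probe of another stefin A gene.
Csta3 probe, chr16:36217755-36217814: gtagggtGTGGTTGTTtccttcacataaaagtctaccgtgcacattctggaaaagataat
Cstdc4 probe, chr16:36188043-36188102: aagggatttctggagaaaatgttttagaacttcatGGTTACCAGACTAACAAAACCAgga
Cstdc3 probe, chr16:36312661-36312720: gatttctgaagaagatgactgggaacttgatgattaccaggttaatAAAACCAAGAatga
Cstdc6 probe, chr16:36334350-36334409: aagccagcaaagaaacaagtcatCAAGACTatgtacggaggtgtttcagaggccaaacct
The longest shared run was 9 bases for the Csta3 probe, 22 for Cstdc4, 10 for Cstdc3 and 7 for Cstdc6. The Cstdc4 and Cstdc3 probes match at 44 of 56 aligned bases. Among the probes not shown, those of Csta2 and Cstdc5 share 25 bases. Probes were compared only with each other, so how far one copy's transcript reaches another copy's probe was not measured. Signal from one copy may reach another copy's probe, and the members are not independent measurements.

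Csta3 was at -4.12 and -2.91 in the controls and at 4.07 and 4.74 in Tie-2-Etv2, a difference of 7.93 ± 0.77 or 243-fold (adjusted p = 0.000502). The faintest signal counted as well above background was -4.76 to -4.35 over the 4 arrays. Control replicate 1 lay close to it, so the Csta3 fold is no exact size. Stfa3 went from 0.41 and 2.59 to 7.60 and 8.09 (adjusted p = 0.0136). Cstdc6 was well above background on 1 of 2 control arrays, at -6.57 and -3.88, and reached 0.66 and 1.56. In each of these genes both Tie-2-Etv2 arrays lay more than 4 units above the higher control. Cstdc3 was not well above background in either control and was at least 6.78-fold higher in Tie-2-Etv2. Csta2 rose by 5.72, Stfa2 by 5.54 and Cstdc4 by 5.22. The calls of Stfa3, Stfa2 and Cstdc4 were lost when control replicate 1 or Tie-2-Etv2 replicate 2 was left out. Cstdc4 also lost its call without Tie-2-Etv2 replicate 1, and Stfa2 lost its call whichever of the 4 arrays was left out.

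Several genes that rose were not well above background in either control, and for these a fold is a lower limit. On each control array the dim probe's own signal, or the faintest signal that counted as well above background if that was higher, was taken as its ceiling, and the bright group's mean was set against the mean of these ceilings. Retnlg, a secreted resistin-like protein of neutrophils, was at -6.32 and -6.76 in the controls and at 1.27 and 1.45 in Tie-2-Etv2, at least 59.7-fold higher (adjusted p = 2.05e-05). Mrgpra6, an orphan receptor of the Mas-related family, was at least 38.1-fold higher, Tac4 at least 17.2-fold, Gm9733 at least 16.2-fold, Ankrd22 at least 15-fold and Ces2b at least 12.2-fold. Cd177, a neutrophil surface protein, was at least 4.68-fold higher. Among genes measured in every array, the related receptors Mrgpra2a and Mrgpra2b rose by 4.98 and 4.91, but their probes share 55 of 60 bases and count as 1 signal.

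Pglyrp1, a peptidoglycan-binding granule protein, was at -2.31 and -0.91 in the controls and at 3.03 and 3.42 in Tie-2-Etv2 (adjusted p = 0.00638). Adgrg3, an adhesion receptor of granulocytes, rose by 4.78, and Itgb2l, a beta-2-like integrin, by 6.49 with 1 of 2 control arrays well above background. Another Itgb2l probe gave a smaller difference, 3.76 ± 0.59. Of 17 monocyte genes tested 4 rose (23.5%, against 2.29% of all genes), while the list's median was -0.07. Those that rose included Cd177, Plac8 (2.43) and the calcium-binding S100a6 (2.14). The calls of Ltf, Mpo, Lcn2, Gfi1, Pglyrp1, Plac8 and S100a6 were lost without Tie-2-Etv2 replicate 2, and those of Mpo, Lcn2 and Gfi1 also without control replicate 1 or Tie-2-Etv2 replicate 1. S100a6 lost its call without control replicate 2 too.

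Genes of mast cells and basophils rose as well. Of 16 such genes, 10 were tested, 5 rose and none fell, with a median difference of 2.61. Cpa3 encodes the carboxypeptidase of mast cell granules. It stood at -2.63 and -0.48 in the controls and at 3.46 and 4.00 in Tie-2-Etv2, a 38.9-fold difference (adjusted p = 0.0147). Mcpt8, the basophil protease, was not well above background in either control and was at least 4.45-fold higher. Prss34, another basophil protease, was above background on 1 of 2 control arrays, at -4.28 and -3.99, and stood at -0.61 and 0.26. Hdc, the enzyme that makes histamine, was at 0.96 and 2.34 in the controls and at 4.44 and 5.30 in Tie-2-Etv2 (adjusted p = 0.0143). Gata2, a transcription factor of mast cells and of early blood progenitors, was at -0.23 and -0.13 against 2.95 and 3.59, an 11.0-fold difference (adjusted p = 0.00364). The receptor Kit, which mast cells and progenitors carry, was at 0.05 and -0.71 against 1.47 and 1.86 and did not pass (adjusted p = 0.104). The 6 untested members, Mcpt1, Mcpt2, Tpsab1, Cma1, Fcer1a and Ms4a2, were not well above background on both arrays of any group, which leaves out most defining genes of mature mast cells. The calls of Cpa3 and Hdc were lost without control replicate 1 or Tie-2-Etv2 replicate 2.

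**Figure D2:**
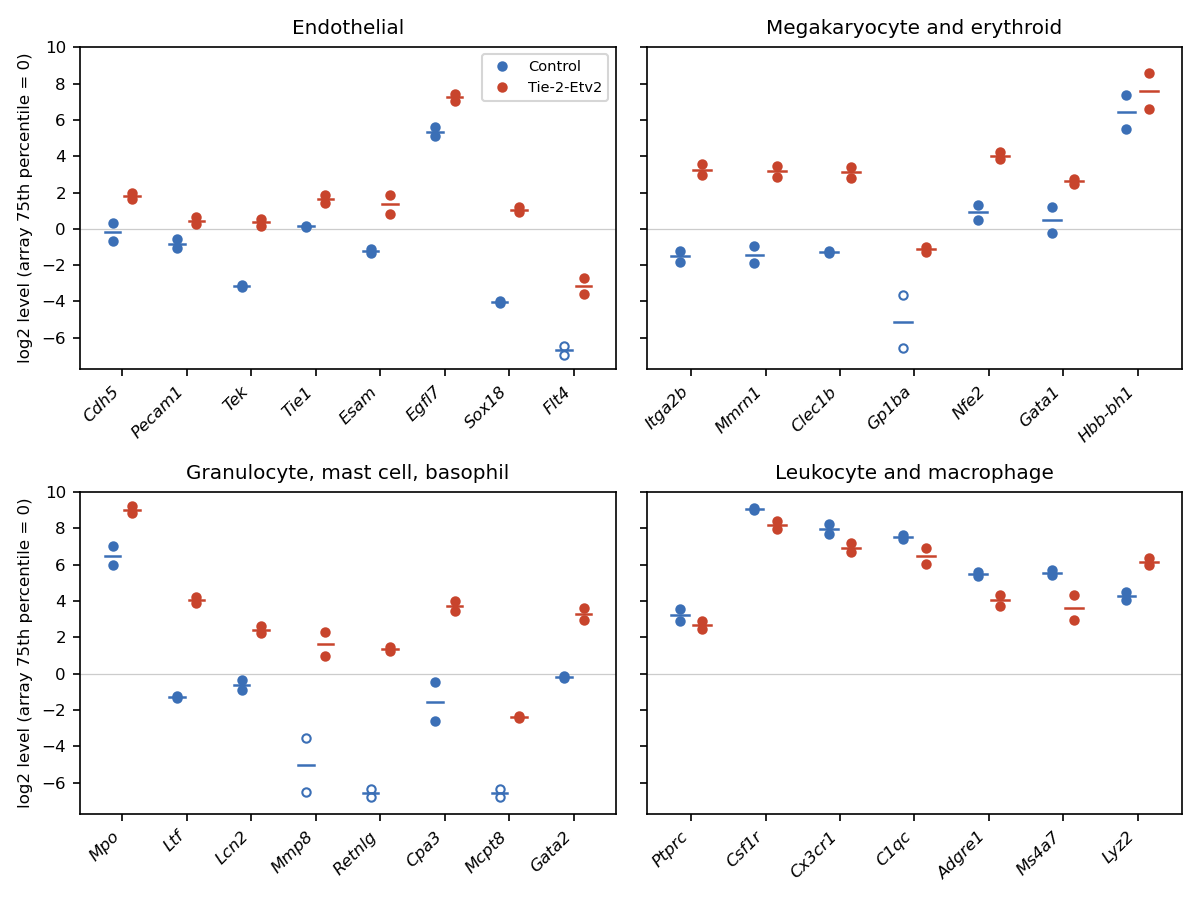
Level of each gene (log2, array 75th percentile at 0) on the 2 control arrays (blue) and the 2 Tie-2-Etv2 arrays (red) of embryo CD45+ cells, with a bar at each group's mean. Open points mark a group in which the probe was not well above background on both arrays, as for Retnlg and Mcpt8 in the controls.

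Megakaryocyte and platelet genes formed the list with the most members that passed. Of 34 tested, 16 rose and 1 fell, and the median difference was 1.38. Itga2b encodes CD41, the integrin of platelets that also marks early blood progenitors. It was at -1.82 and -1.22 in the controls and at 2.95 and 3.57 in Tie-2-Etv2, a 27.5-fold difference (adjusted p = 0.000508). Clec1b, the platelet receptor for podoplanin, was at -1.30 and -1.19 against 2.81 and 3.42 (adjusted p = 4.25e-05). Mmrn1, a platelet storage protein that lymphatic endothelium also makes, was at -0.93 and -1.91 against 2.87 and 3.49. Each of these 3 genes had a gap of more than 3 units between the groups. Gp1ba, a subunit of the von Willebrand factor receptor, was above background on 1 of 2 control arrays and rose by 3.98.

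Not all platelet genes moved upward. Tbxas1, the thromboxane synthase that macrophages also express, fell from 4.31 and 4.11 to 2.92 and 2.19 (adjusted p = 0.0162). Pf4, platelet factor 4, was high in both genotypes, at 8.46 and 8.10 in the controls and 7.60 and 7.32 in Tie-2-Etv2, and did not pass (adjusted p = 0.236). The list's summed level was 9.30 and 8.91 in the controls and 8.87 and 8.82 in Tie-2-Etv2, since its brightest members did not rise. Without Tie-2-Etv2 replicate 2, 4 members rose, and between 11 and 13 without any other single array. Mmrn1, Gp1ba and Tbxas1 lost their calls without Tie-2-Etv2 replicate 2. Gp1ba also lost its call without Tie-2-Etv2 replicate 1, and Tbxas1 without control replicate 1.

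Of 13 erythroid transcription factors and globins tested, 4 rose and none fell. Gata1, a central factor of red cells and megakaryocytes, was at -0.21 and 1.21 in the controls and at 2.5 and 2.76 in Tie-2-Etv2, a 4.36-fold difference (adjusted p = 0.0322). Nfe2, a factor for platelet release and globin genes, was at 0.50 and 1.33 against 3.82 and 4.21 (adjusted p = 0.00421). Gfi1b rose by 2.24 and Zfpm1, the Gata1 cofactor, by 1.55. Those 4 transcription factors were the members that rose. The embryonic globin Hbb-bh1 stood at 5.52 and 7.38 in the controls and at 6.60 and 8.60 in Tie-2-Etv2, so the groups overlapped (adjusted p = 0.586). Hba-x behaved alike, at 4.67 and 6.32 against 5.41 and 7.07. In both genotypes replicate 2 had more globin signal than replicate 1, which is a difference between libraries of one group. Of 28 heme, iron and red cell membrane genes 1 rose (3.57%, against 2.29% of all genes) and none fell. The gene that rose was the carbonic anhydrase Car2 (2.14). The calls of Gata1, Gfi1b, Zfpm1 and Car2 were lost without Tie-2-Etv2 replicate 2, those of Gata1 and Gfi1b also without control replicate 1, and that of Gata1 also without Tie-2-Etv2 replicate 1.

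Of 42 pan-endothelial genes tested, 14 rose and none fell, with a median difference of 1.16. In bulk samples a higher share of cells of a type and more RNA per cell cannot be told apart, here or for any other group. Tek, the Tie-2 receptor itself, was at -3.21 and -3.10 in the controls and at 0.14 and 0.56 in Tie-2-Etv2, an 11.4-fold difference (3.51 ± 0.31, adjusted p = 0.000221). In the embryo CD45- gate its controls were at 3.30 and 3.67, above every array of the CD45+ gate. Tek's probe lies at chr4:94540624-94540683 on the plus strand of mm9. Sox18, a factor of vessel and lymphatic development, was at -4.09 and -3.97 against 0.94 and 1.19, a 34.2-fold difference (adjusted p = 0.00225). Its control levels lay close to the faintest signal counted as well above background (-4.76 to -4.35), so that fold is no exact size. Cdh5 went from 0.33 and -0.66 to 1.65 and 1.99, a 3.96-fold difference (adjusted p = 0.00586). Pecam1, the adhesion molecule CD31 of endothelium and platelets, rose by 1.28.

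Egfl7, a secreted endothelial protein whose gene hosts a microRNA, was at 5.60 and 5.11 in the controls and at 7.04 and 7.44 in Tie-2-Etv2 (adjusted p = 0.000592). Esam, a junction protein of endothelium and platelets, rose by 2.58, and Exoc3l2, an exocyst protein, by 2.99. Of 14 VEGF, Tie and neuropilin receptors and ligands 5 rose: Tek, Angpt1 (4.01), Vegfc (2.57), Tie1 (1.52) and Flt4, which was not well above background in either control and was at least 2.64-fold higher. Angpt1 is the ligand that activates Tie-2, Vegfc is a ligand of Flt4, and Tie1 is an orphan partner of Tie-2. Angpt1 was at -0.77 and -1.52 in the controls and at 2.33 and 3.40 in Tie-2-Etv2. In the arterial list, of 20 tested, Gja4 (1.73) and Notch4 (1.39) rose (10%, against 2.29% of all genes) and none fell. Of 21 Notch pathway genes Notch4, the target Nrarp (2.77) and the glycosyltransferase Mfng (1.00) rose (14.3%, against 2.29% of all genes).

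Kdr, the main VEGF receptor of endothelium, was read by 2 probes that disagreed. The brighter probe was at 3.91 and 3.52 in the controls and at 3.61 and 3.76 in Tie-2-Etv2, a difference of -0.03 (adjusted p = 0.983). The other probe was at -0.61 and -0.10 against 1.36 and 1.95, a difference of 2.01 ± 0.24. That probe also separated the gates, at 6.83 and 6.94 in the CD45- controls, while the brighter probe stood at 4.89 and 4.35 there. With the mean of both probes the difference was 0.99 (adjusted p = 0.0129), so the Kdr value depends on the probe. Of 18 basement membrane genes 1 rose (5.56%, against 2.29% of all genes), Col18a1 (1.36). Col4a1 stood at -0.31 and 0.22 against 0.31 and 0.23 (adjusted p = 0.748).

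Without Tie-2-Etv2 replicate 2, 6 pan-endothelial genes rose, and 7 without control replicate 2. Cdh5, Pecam1, Angpt1, Mfng, Notch4, Tie1 and Col18a1 lost their calls without Tie-2-Etv2 replicate 2. Pecam1, Notch4, Tie1 and Col18a1 also lost theirs without control replicate 2. Notch4, Tie1 and Col18a1 also lost theirs without control replicate 1, and Tie1 also without Tie-2-Etv2 replicate 1. The calls of Tek, Sox18, Egfl7, Esam, Exoc3l2, Vegfc, Flt4, Gja4 and Nrarp were kept whichever single array was left out.

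Egfl7 was chosen to show a promoter because it was the brightest of the endothelial genes in the plot of levels by array. The 250 bases before its start, from RefSeq in GRCm38.p6 at chr2:26583615-26583864 on the plus strand, are given with an ETS-type motif in capitals.
Egfl7 promoter: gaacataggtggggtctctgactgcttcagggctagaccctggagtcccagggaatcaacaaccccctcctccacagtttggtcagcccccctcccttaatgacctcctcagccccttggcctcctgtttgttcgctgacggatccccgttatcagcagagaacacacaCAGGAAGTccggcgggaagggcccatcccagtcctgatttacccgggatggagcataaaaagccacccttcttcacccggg
The motif CAGGAAGT begins 81 bases before the start. Searched on both strands over 250 bases before to 50 after each start, CAGGAAGT was in 3.85% of 467 promoters of genes that rose, 6.21% of 161 promoters of genes that fell, 3.37% of 16266 promoters of tested genes and 3.33% of all 32851 promoters. The other ETS-type form, CCGGAAGT, was in 1.71%, 1.24%, 6.49% and 3.89% of the same sets. The promoters of genes that rose came from 368 genes matched by symbol, and the 2 motifs share their last 6 bases. A match describes these letters and is not a binding site.

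Blood progenitor genes rose in part. Of 33 blood stem and progenitor cell genes, 11 rose and none fell (median 0.62), among them Itga2b and Angpt1. Without Tie-2-Etv2 replicate 2 the count was 2, and without control replicate 1 it was 6. The early regulators differed among themselves. Gata2 rose, while Tal1, a master factor of blood formation, was at 1.08 and 2.24 in the controls and 2.23 and 2.73 in Tie-2-Etv2 (adjusted p = 0.308). Runx1, needed for blood to emerge from endothelium, was at 4.61 and 3.93 against 3.73 and 3.88 and did not pass (adjusted p = 0.850). Spi1, the PU.1 factor of myeloid cells, was at 2.72 and 2.21 against 2.25 and 2.16 (adjusted p = 0.839). Of 23 other ETS factors tested, 1 rose (4.35%, against 2.29% of all genes). That gene was Fev (1.02), whose call was lost without control replicate 1 or Tie-2-Etv2 replicate 2.

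Macrophage genes stood lower in Tie-2-Etv2, but few passed the test. Of 44 macrophage identity genes, 1 rose (2.27%, against 2.29% of all genes) and 3 fell (6.82%, against 0.712%). The list's median was -0.93, and 31 members had both Tie-2-Etv2 arrays below both controls, against 23.4% of all genes. Adgre1, an adhesion receptor that marks mouse macrophages, was at 5.59 and 5.39 in the controls and at 4.36 and 3.74 in Tie-2-Etv2, a difference of -1.44 ± 0.26 (adjusted p = 0.0149). Ms4a7, a membrane protein of macrophages, fell by 1.93. Csf1r, the receptor for macrophage colony-stimulating factor, was at 9.10 and 8.99 against 8.39 and 7.98 by its brightest probe. That difference, -0.86 ± 0.26, did not pass (adjusted p = 0.113), and both Tie-2-Etv2 arrays lay below both controls. The other Csf1r probes gave larger decreases, -1.29 ± 0.24 and -1.36 ± 0.30, so the size of its decrease depends on the probe. C1qc stood at 6.90 and 6.06 in Tie-2-Etv2 (adjusted p = 0.154), and Cx3cr1, the fractalkine receptor, at 7.72 and 8.25 against 7.20 and 6.69 (adjusted p = 0.425).

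Of the macrophage genes, 5 had positive differences and 1 of them passed. That gene, Lyz2, lysozyme M, which granulocytes also make, was at 4.52 and 4.06 in the controls and at 5.96 and 6.38 in Tie-2-Etv2, a 3.68-fold difference (adjusted p = 0.00644). Of 30 lysosomal genes 4 fell (13.3%, against 0.712% of all genes) and none rose, with a median of -0.65. Among those that fell were the lysosomal factor Mitf (-0.99), the progranulin gene Grn (-1.04) and cathepsin A, Ctsa (-0.80). Of 28 phagocytic and scavenger receptors tested 2 fell (7.14%, against 0.712% of all genes), Clec4a1 (-1.31) and the lipid scavenger Cd36 (-2.58). The lysosomal and macrophage decreases did not survive single arrays: without control replicate 1, or without Tie-2-Etv2 replicate 2, no member of either list was called lower. Ms4a7, Clec4a1 and Mitf also lost their calls without control replicate 2, and Mitf without Tie-2-Etv2 replicate 1. Clec4a1 and Cd36 lost theirs without control replicate 1 or Tie-2-Etv2 replicate 2, and Lyz2 without Tie-2-Etv2 replicate 2. With normexp background correction 12 macrophage and 9 lysosomal genes were called lower.

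**Figure D3:**
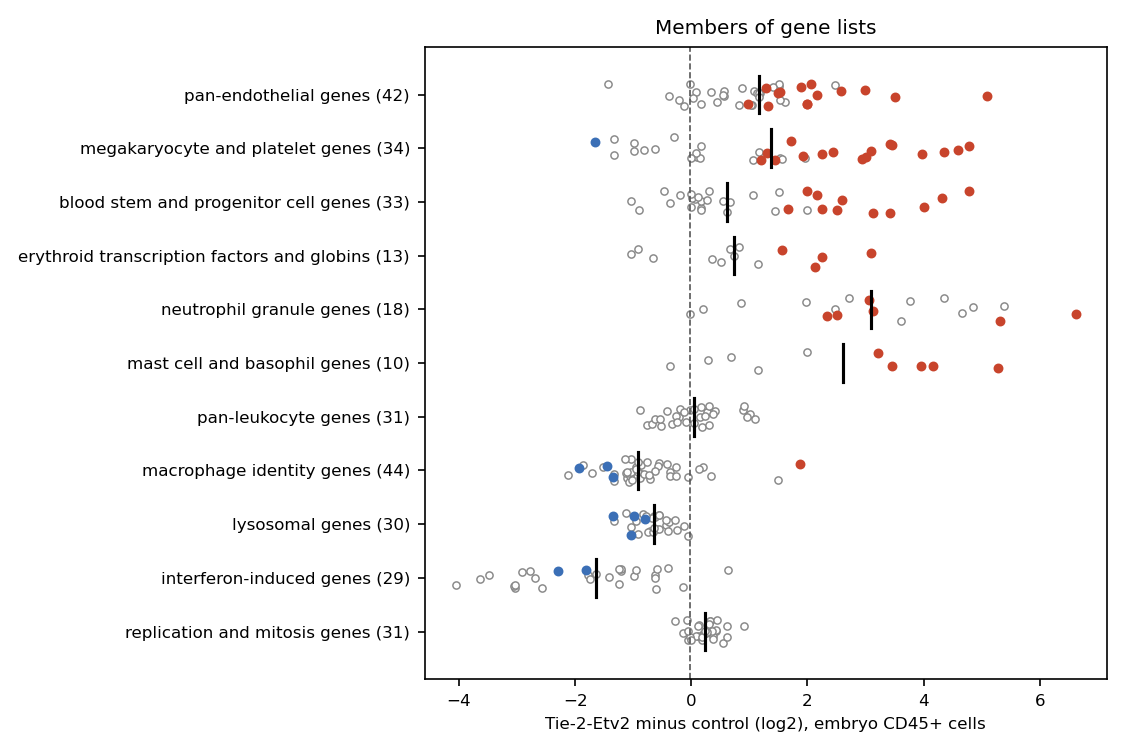
Difference between Tie-2-Etv2 and control (log2) for each tested member of 11 gene lists, with the number tested in brackets. Filled points passed the test (red higher, blue lower), the black bar is the list's median and the dashed line the median of all genes. The neutrophil list's median is 3.1, the macrophage list's -0.93.

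Further decreases lay outside these lists. Clec4f, a lectin of liver macrophages, was at -0.47 and -3.04 in the controls and was not well above background in either Tie-2-Etv2 array, at least 7.64-fold lower (adjusted p = 0.00984). Cd72, an inhibitory receptor of B cells and macrophages, was at -0.04 and -0.18 against -2.45 and -4.23, a 9.39-fold difference (adjusted p = 0.0321). The paired membrane genes Tmem176a and Tmem176b fell by 1.94 and 1.90. Gm4841, a gene of unstated function here, was not well above background in either Tie-2-Etv2 array and was at least 3.63-fold lower. Adrb1, the beta-1 adrenergic receptor, fell by 1.97, Ms4a14 fell by 2.16 and Rasa4 fell by 1.88. The Tmem176a, Tmem176b and Gm4841 calls were kept whichever array was left out. Clec4f, Cd72, Adrb1, Ms4a14 and Rasa4 lost theirs without Tie-2-Etv2 replicate 2, and Cd72 and Ms4a14 also without either control.

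Interferon-induced genes had a low median difference, -1.64, but 1 control array stood apart. Of 29 such genes 2 fell (6.90%, against 0.712% of all genes), the antiviral Oas1a (-1.82) and Oasl2 (-2.30), and none rose. The list's median level was 2.88 on control replicate 1, 1.29 on control replicate 2, and 0.06 and -0.13 on the Tie-2-Etv2 arrays. Control replicate 1 was the highest of the 4 arrays for 25 of the 29 genes, and it exceeded control replicate 2 by more than 2 units for 9 of them, against 1.96% of all genes. Rsad2, the antiviral protein viperin, picked after its values were seen, was at 5.42 and -0.70 in the controls and at -1.85 and -1.55 in Tie-2-Etv2. Isg15, a ubiquitin-like protein, was at 7.19 and 3.01 against 2.69 and 2.13, and Ifit1 at 4.06 and -2.27 against -2.02 and -3.47. None of these 3 passed. Without control replicate 1 the list's median was -0.88 and no member was called. Without control replicate 2 it was -1.95 and 13 were called lower. The related genes Oas1f (-1.86) and Parp14 (-1.89) also fell. All 4 called genes lost their calls without control replicate 1, Tie-2-Etv2 replicate 1 or Tie-2-Etv2 replicate 2, and Oas1a and Oas1f also without control replicate 2.

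**Figure D4:**
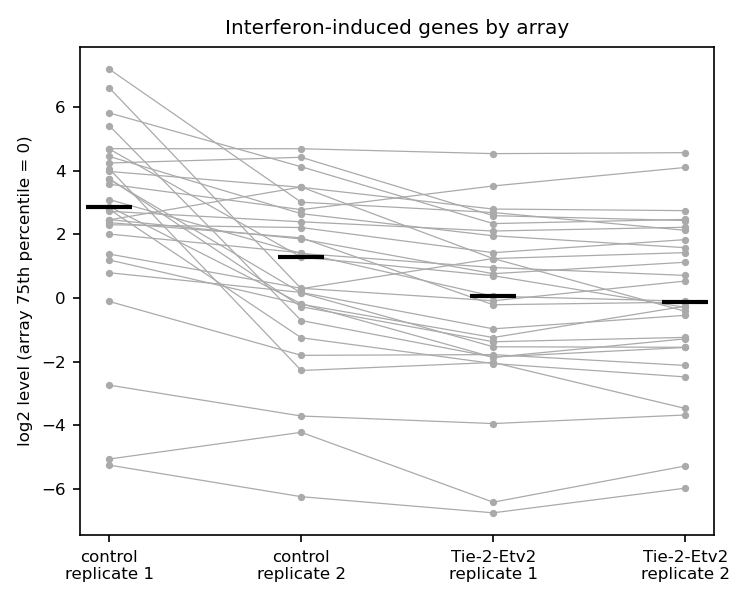
Level of the 29 interferon-induced genes (log2, array 75th percentile at 0) on each of the 4 embryo CD45+ arrays, 1 line per gene, with a bar at each array's median. Control replicate 1 has a median of 2.88 and stands above the other 3 arrays.

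General white blood cell and cell cycle genes did not pass. Of 31 pan-leukocyte genes none rose and none fell by limma's test, with a median of 0.04. With normexp background correction 3 rose and 1 fell. Of these 31, 11 had both Tie-2-Etv2 arrays above both controls and 11 both below, against 19.8% and 23.4% of all genes. Of 31 replication and mitosis genes none passed, with a median of 0.23. Both Tie-2-Etv2 arrays lay above both controls for 18 of them, against 19.8% of all genes. Mki67, a marker of dividing cells, was at 6.17 and 6.35 in the controls and at 6.23 and 6.14 in Tie-2-Etv2 (adjusted p = 0.904). Neither count shows that these genes were equal, only that no difference passed.

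Markers of other cell types gave few calls, to be read against 2.29% of all genes called higher and 0.712% called lower. Of 28 mesenchymal and mural cell genes, none rose and 1 fell, Anpep (-1.39), an aminopeptidase that myeloid cells also carry. Of 26 yolk sac endoderm and hepatocyte genes 1 rose, Dpp4, at least 6.64-fold, a peptidase also found on white blood cells. Of 19 neural genes 1 fell, Nes (-1.15), of 20 lymphoid genes 1 rose, Cd3d, at least 1.95-fold, and of 16 muscle and 15 epithelial genes none passed. The defining genes Afp and Pdgfrb stood at 2.77 and 2.76 against 2.02 and 2.40, and at -2.66 and -1.47 against -1.42 and -1.59. The summed level of the mesenchymal and mural list was 8.57 and 8.04 in the controls and 7.87 and 7.28 in Tie-2-Etv2, and that of the endoderm list 7.47 and 7.19 against 7.09 and 6.50. Their part in the other results was not tested. The calls of Anpep, Nes and Cd3d were lost without control replicate 1 or Tie-2-Etv2 replicate 2, and those of Nes and Cd3d also without control replicate 2.

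A few genes with other roles stood out. Tuba8, an alpha-tubulin of platelets and brain, was at -2.44 and -2.36 in the controls and at 3.60 and 4.63 in Tie-2-Etv2, a 91.5-fold difference (adjusted p = 0.000146). Muc13, a membrane mucin that marks some blood progenitors, was at -1.12 and -1.68 against 3.20 and 3.58 (adjusted p = 0.000589). Perp, a p53 target, rose by 3.23. It was 1 of 2 that rose among 23 p53 target and apoptosis genes (8.70%, against 2.29% of all genes). Cd55, which protects cells from complement, rose by 2.96, the MHC class II chain H2-Ab1 by 2.37, the oxygen sensor Egln3 by 2.66 and Irak3, a brake on Toll-like receptor signalling, by 1.71. Of 29 BMP and TGF-beta genes the co-receptor Tgfbr3 (3.24) and the activin subunit Inhba (2.26) rose (6.90%, against 2.29% of all genes). The receptor Tgfbr1 (-1.12) fell (3.45%, against 0.712%). That list's median was -0.26, and 20 of its 29 differences were negative. Tuba8, Muc13, Perp, Cd55 and Tgfbr3 kept their calls whichever array was left out. H2-Ab1, Egln3, Irak3, Inhba and Tgfbr1 lost theirs without Tie-2-Etv2 replicate 2, Tgfbr1 without either control, and H2-Ab1 and Inhba without control replicate 2.

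The same genotypes were compared in the yolk sac CD45+ cells and in the embryo CD45- cells, on arrays that none of these comparisons share. In these gates too the controls lay in rows 1 and 2 and Tie-2-Etv2 in rows 3 and 4, so row and genotype cannot be told apart. The comparisons also take their error from the same fit of all 16 arrays, so their calls are not independent. In the yolk sac CD45+ gate 4458 genes rose (18.1%) and 3542 fell (14.4%). In the embryo CD45- gate 308 rose (1.25%) and 8 fell (0.0325%). Of the 564 genes that rose in embryo CD45+ cells, 522 also rose in yolk sac CD45+ cells, 92.6% of the former and 11.7% of the latter list. Of the 175 that fell, 142 also fell there, 81.1% of the former and 4.01% of the latter. In embryo CD45- cells 86 of the 564 also rose, 15.2% of the former and 27.9% of that gate's list. None of the 175 also fell there, and 4 rose.

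The difference between the embryo and yolk sac CD45+ effects was tested directly, with tissue and slide not separable. The embryo effect was more positive for 500 genes (2.03%) and more negative for 270 (1.1%). In yolk sac CD45+ cells 35 of the 44 macrophage genes fell and none rose, with a median of -3.47. The effects differed between tissues for 14 of them, and all 14 were more negative in the yolk sac. Csf1r, by its brightest probe, was at 9.30 and 8.97 in yolk sac controls and at 5.67 and 5.93 in yolk sac Tie-2-Etv2. By that probe its effects differed by 2.47 (adjusted p = 0.0122). C1qc differed by 3.20, Adgre1 by 3.11 and Ms4a7 by 3.1. Clec1b rose less in the embryo than in the yolk sac (by 4.36 against 7.85, adjusted p of the difference = 0.00749), and so did Gfi1b, Zfpm1, Tie1, Tgfbr3 and Mfng. The effects on S100a6 differed by 2.89. Klra2 and Sirpb1b, membrane receptors of the Ly49 and SIRP families, rose in the embryo by at least 4.34-fold and at least 9.65-fold and had fitted differences of -2.31 and -0.62 in the yolk sac, which did not pass. Gm4841 fell in the embryo and had a difference of -0.30 in the yolk sac, and Col25a1, a collagen, rose by 4.79 in the yolk sac against a difference of 1.13 in the embryo that did not pass. With a replicate block over all arrays none of these tissue differences passed (smallest adjusted p = 0.0508, 4685 genes with an unadjusted p under 0.05), and without Tie-2-Etv2 replicate 1 the counts were 63 and 25. Klra2 lost its own call whichever array was left out, and Sirpb1b without Tie-2-Etv2 replicate 2.

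**Figure D5:**
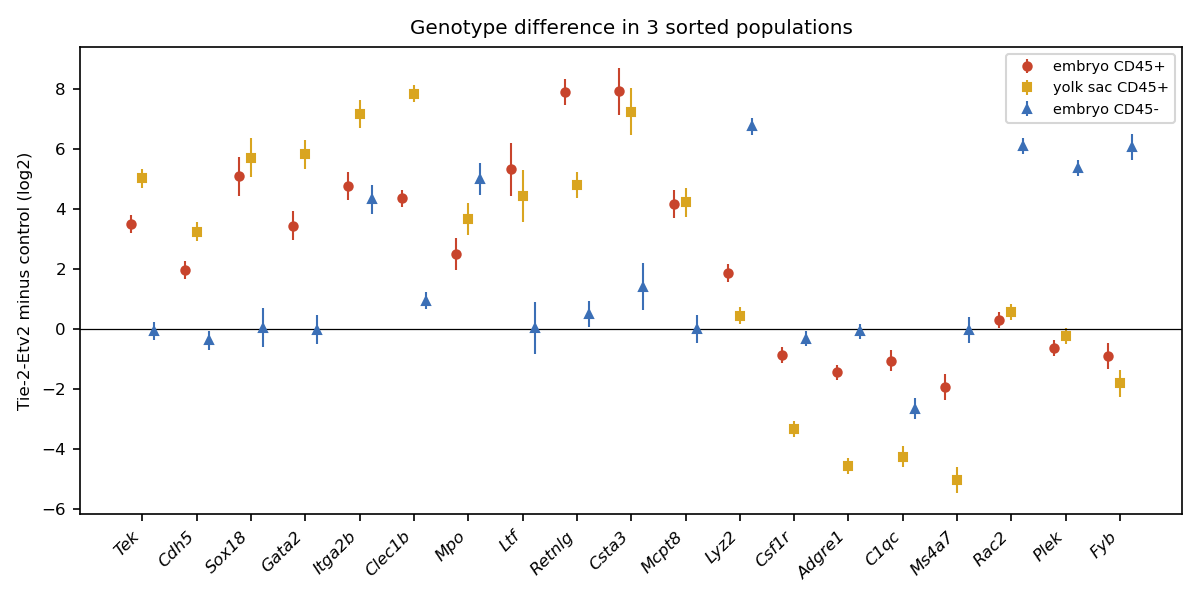
Difference between Tie-2-Etv2 and control (log2, with SE) for 19 genes in embryo CD45+ cells (red circles), yolk sac CD45+ cells (yellow squares) and embryo CD45- cells (blue triangles), 2 arrays per group. By its brightest probe the Csf1r difference was -0.86 in embryo CD45+ cells, which did not pass, and -3.33 in yolk sac CD45+ cells. Its other probes gave -1.29 and -1.36 in embryo CD45+ cells. No difference between these tissues passed with a replicate block over all arrays. Rac2, Plek and Fyb rose in embryo CD45- cells, where the Tek difference was -0.06.

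Against the embryo CD45- cells, which lay on the same slide, the effect in CD45+ cells was more positive for 139 genes (0.565%) and more negative for 141 (0.573%). This test shares the embryo CD45+ arrays with the tissue test. The granulocyte genes Retnlg, Csta3, Mmp8 and Cstdc6, which were not well above background in the CD45- controls, had more positive fitted effects in CD45+ cells, and so did the endothelial genes Tek, Sox18, Cdh5 and Pecam1, whose levels were high in CD45- cells of both genotypes. Of 31 pan-leukocyte genes, 14 had a more negative effect in CD45+ than in CD45- cells and none a more positive one. Rac2, the small GTPase of white blood cells, was at -3.32 and -3.38 in CD45- controls and at 2.89 and 2.65 in CD45- Tie-2-Etv2, but at 5.90 and 5.73 against 6.08 and 6.17 in CD45+ cells. Fyb, an adaptor of integrin signalling, differed by -6.96, Plek, a platelet and leukocyte signalling protein, by -5.98, Nckap1l, an actin regulator of blood cells, by -5.53 and Pf4 by -5.79. Lyz2 rose in both gates, with fitted effects of 6.76 in CD45- cells and 1.88 in CD45+ cells (adjusted p of the difference = 0.000247). Its CD45- controls, like those of Fyb, were not well above background, so these fitted differences are no exact measure of size. Itga2b rose by 4.33 and 4.78, and its difference between gates did not pass (0.46 ± 0.67 (SE), adjusted p above 0.05).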

How the data were processed

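Levels came from 16 1-colour Agilent arrays of Cy3-labelled RNA. Per the file headers, the authors deposited scanner output made with Agilent Feature Extraction 10.7: processed signal intensity per spot, on a linear scale, with probe coordinates in mm9. The authors' deposited value table holds log2 values with each probe centred over the arrays (largest probe median 2.5e-07). Its column medians for the 4 arrays were 0.165, -0.0836, 0.00544 and -0.0324. Differences between arrays in it correlated at 1 with those of the scanner values.

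Of 62976 spots, 59305 were not controls and held 55681 probes, of which 87 were dropped as outliers. Values were log2 intensity minus the array's 75th percentile. A probe was kept if some group had it well above background on each of its 2 arrays (34126 probes), and the brightest probe stood for a gene, giving 24588 genes, 16532 with a RefSeq symbol. Group means over all 16 arrays were fitted with limma 3.58.1 in R 4.3.3 (lmFit, eBayes, 8 residual degrees of freedom), with Benjamini-Hochberg adjustment over all genes and a threshold of 0.05. Values after ± are standard errors.

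Genes were named by a rule: the 15 largest changes each way among passing genes measured on all arrays, the 8 largest each way by lower limit, up to 4 passing members of each of 37 gene lists each way (all where 5 or fewer passed), the 8 largest of each sign for each difference of effects, and 24 genes always. Cstdc3, Hp, S100a8, S100a9, Rsad2, Isg15 and Ifit1 were added after their values were seen. Some genes that the rule names are not reported here. The comparison, the members and the lists were chosen with earlier results of these data known. The embryo CD45- transgenic titles name Tie-2 alone, and those arrays were taken as Tie-2-Etv2. The fit was tested on simulated data. The alternatives tried were other scalings, background correction, filters, probe rules, priors, subsets of arrays, the replicate block, the value table and leaving out each array.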

Additional observations from a re-analysis of the deposited data

Results flagged for a closer look

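Each value here is the fitted Tie-2-Etv2 effect in embryo CD45+ cells minus the effect in another population (log2), and each passed the test of that difference. Groups of 2 arrays allow no test for a single outlying sample.

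Against embryo CD45- cells, vascular genes had more positive effects in CD45+ cells: Tek 3.56, Cdh5 2.36, Pecam1 1.84, Sox18 5.05, Esam 2.56, Egfl7 1.86, Flt4 3.65, Vegfc 3.12, Nrarp 2.75 and Tgfbr3 3.04. So did the blood genes Gata2 (3.47), Clec1b (3.41), Mcpt8 (4.16) and Prss34 (4.16). Among granulocyte-associated genes the differences were Csta3 6.50, Csta2 4.91, Cstdc6 6.41, Cstdc3 5.06, Retnlg 7.40, Mmp8 6.31, Adgrg3 4.54, Mrgpra2a 4.20, Mrgpra2b 3.90, Mrgpra6 5.08, Itgb2l 6.49, Cd177 4.83 and Plac8 2.90. Ankrd22 (5.95), Gm9733 (6.07), Ces2b (5.48), Cd55 (2.49), Dpp4 (3.62) and Egln3 (3.25) had the same sign. At least 1 group of the comparison was not well above background on either array for Flt4, Mcpt8, Csta3, Csta2, Cstdc6, Cstdc3, Retnlg, Mmp8, Mrgpra2b, Mrgpra6, Itgb2l, Cd177, Ankrd22, Gm9733, Ces2b and Dpp4. Their values depend on signal near background and measure no exact size.

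The effect was more negative in CD45+ than in CD45- cells for the leukocyte and platelet genes Spi1 (-2.99), Tbxas1 (-3.55), Pf4 (-5.79), Lyz2 (-4.88), Rac2 (-5.81), Plek (-5.98), Fyb (-6.96) and Nckap1l (-5.53). Clec4f (-5.13), Oas1a (-3.70), Oas1f (-3.47) and Gm4841 (-3.98) had that sign too. In Spi1, Rac2, Plek, Fyb, Nckap1l and Pf4 the CD45+ comparison itself did not pass. The same limit of background holds for Spi1, Lyz2, Fyb, Clec4f and Gm4841.

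Against yolk sac CD45+ cells, macrophage and lysosomal genes had less negative effects in the embryo: Csf1r 2.47, Adgre1 3.11, C1qc 3.20, Ms4a7 3.1, Ctsa 1.2, Grn 2.51, Mitf 1.89, Clec4a1 3.09, Ms4a14 2.77, Adrb1 3.12 and Tbxas1 2.36. Retnlg (3.09), S100a6 (2.89), Klra2 (6.43) and Sirpb1b (4.75) had more positive fitted effects, and the Klra2 call within the embryo was lost whichever array was left out. The effect was less positive or more negative in the embryo for Tie1 (-2.21), Mfng (-1.52), Tgfbr3 (-1.65), Clec1b (-3.49), Gfi1b (-2.61), Zfpm1 (-2.58), Gm4841 (-3.69) and Col25a1 (-3.66). The limit of background holds here for Retnlg, Klra2, Sirpb1b, Ms4a14, Adrb1, Gm4841 and Col25a1. Tissue and slide cannot be told apart in these values, and none passed with a replicate block over all arrays.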

How the results depend on the processing

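Of the 125 genes in the text, 98 passed the test, and none of the 98 reversed its sign under any of the 16 alternatives. Of those 98, 95 still passed with quantile normalization, 93 with normexp background correction, 76 with no filter on dim probes, 98 with the trended prior, 62 in the 8 embryo arrays and 40 under every removal of 1 array. Against 564 genes higher and 175 lower, the 8 embryo arrays alone gave 352 and 55, and the 4 arrays alone 0 and 0 (smallest adjusted p = 0.0618). Genes lower numbered 266 with quantile normalization, 466 with normexp (658 higher), 98 with no filter and 333 with the trended prior. Leaving out 1 array, which leaves a lone sample assumed to vary like the other groups, gave 263 to 533 higher and 22 to 392 lower.

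Deviations of same-numbered replicates correlated at only 0.024, although the globin genes described above shifted the same way in both genotypes. The labels do not say what a replicate number marks or whether samples shared litters. A single correlation therefore cannot show whether the samples were paired. A replicate block gave 0 higher and 0 lower on the 4 arrays (2818 genes at an unadjusted p under 0.05) and 396 and 122 over all arrays. For the difference from the CD45- effect (139 more positive, 141 more negative, 280 in all), the 8 embryo arrays gave 74, 92 and 166, and the replicate block 72 more positive and 176 in all. Leaving out 1 array gave 99 to 221 more negative. For the difference from the yolk sac effect (500, 270 and 770), no filter gave 231, 90 and 321, and the replicate block 0, 0 and 0. Normexp gave 461 and the trended prior 452 more negative. Leaving out 1 array gave 63 to 501 more positive, 25 to 441 more negative and 88 to 942 in all. The cause was not tested.

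Genes that did not pass had signs that turned: Kdr (0.0040 with detected-probe scaling, 0.99 with the probe mean, -0.22 to 0.16 leaving out 1 array), Hba-x (-0.0884 to 1.57), Mki67 (-0.17 to 0.0198) and Pdgfrb (-0.0356 to 1.15). Dim probes limit the low end: 141 of the 564 genes were not well above background in either control.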

Other observations

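Lists not described above gave few calls in embryo CD45+ cells, where 2.29% of all genes were called higher and 0.712% lower. Of 35 chemokines, interleukins and their receptors none passed, but the median difference was -1.0 and 2 members had positive differences. Of 22 immediate early and stress genes none passed, with a median of -0.69. For 17 of them both Tie-2-Etv2 arrays lay below both controls, against 23.4% of all genes. Of 18 complement genes 1 rose (Cd55), of 18 antigen presentation genes 1 rose (H2-Ab1), of 22 Toll-like receptor and inflammasome genes 1 rose (Irak3), and of 29 glycolysis and hypoxia genes 1 rose (Egln3). Of 9 lymphatic endothelial genes tested, Flt4 and Mmrn1 rose, and of 12 venous and capillary genes Cd36 fell. Of 19 early blood-endothelial regulators Gata2 and Egfl7 rose.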
